A study of Mus musculus with 2 samples.

Results

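The Wnt ligands, Frizzled receptors and R-spondins were taken as the protein-coding genes of the mouse annotation whose symbols begin with Wnt, Fzd or Rspo followed by a family number. This gave 33 of 21853 genes: 19 Wnt genes, 10 Fzd genes and 4 Rspo genes. Their accessible chromatin was read from DNase-seq of urinary bladder, an assay in which the enzyme DNase I cuts exposed DNA and regions with many cuts are called as peaks. Short protected stretches inside such regions are called as footprints. The tissue came from adult female B6CASTF1/J mice (offspring of a C57BL/6 by CAST mating) at an age of 18 to 20 months. The 2 libraries form 1 group and are given as biological replicates 1 and 2 under 1 donor record. The labels leave it unsaid if the samples are from separate animals, and their spread may be technical. No second condition exists, and no p-value was computed.

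Wnt proteins are secreted lipid-modified ligands that bind Frizzled receptors, together with co-receptors such as Lrp5 and Lrp6 when the signal runs through beta-catenin. R-spondins are secreted proteins that bind Lgr receptors and keep the ubiquitin ligases Znrf3 and Rnf43 from removing Frizzled receptors from the cell surface. In the bladder, stromal cells are known to send Wnt signals to the basal cells of the urothelium during repair.

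Replicate 1 had 84591 deposited peaks and replicate 2 had 112174, with a median signal of 0.819 and 0.760. Signals come in whole steps of 1 size in each library, and the median peak held 96 and 86 steps. The depth in reads is unknown. Markers matched the tissue label in part. A promoter peak in both libraries was found at 16 of 16 urothelium, 9 of 10 fibroblast and 7 of 10 smooth muscle genes. It was found at 4 of 7 endothelium, 3 of 5 mesothelium, 2 of 5 glia and neuron, 1 of 6 immune and 2 of 8 other-organ genes. Among all protein-coding genes the share was 63.0%, and the smooth muscle, endothelium and mesothelium counts lie near it. Upk3b and Krt19 stand on both the urothelium and the mesothelium list. Smooth muscle genes had promoter peaks at 10 of 10 in replicate 1 and at 7 in replicate 2. The summed promoter signal of that list was 15.3 and 13.1, that of the urothelium list 65.1 and 59.2, and that of the fibroblast list 34.8 and 40.2. Immune genes had promoter peaks at 1 of 6 in replicate 1 and at 3 in replicate 2, with a summed signal of 3.91 and 7.202, and the part of such cells in the results was not tested. In whole tissue, fewer cells of a type and less accessibility per cell cannot be told apart.

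All 10 Frizzled receptor genes had a promoter peak in both libraries, against 11 of 19 Wnt genes and 2 of 4 R-spondin genes. A promoter is here the 1 kb on either side of any transcription start site (TSS), and the promoter signal of a gene is the deposited signal summed over the peaks in it. Some peaks of 1 library overlap one another, as at Fzd8 in replicate 1, and each was counted and summed. A value of 0 means that no peak was called, not that no cut was seen. In all, promoter peaks marked 23 of the 33 genes in replicate 1, 26 in replicate 2 and 23 in both. Among all protein-coding genes the shares were 64.1% in replicate 1, 66.4% in replicate 2 and 63.0% in both. Neither library had a promoter peak at 7 of the 33 genes, against 32.5% of all genes. The median promoter signal, as the mean of 2 libraries, was 5.78 over the Fzd genes, 0.985 over the Wnt genes and 0.295 over the Rspo genes, beside 2.10 over all genes. By library the medians were 5.75 and 5.81 for Fzd, 0.622 and 1.42 for Wnt and 0.200 and 0.389 for Rspo, beside 1.93 and 2.25 over all genes, so the order of the families was the same in each.

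**Figure D1:**
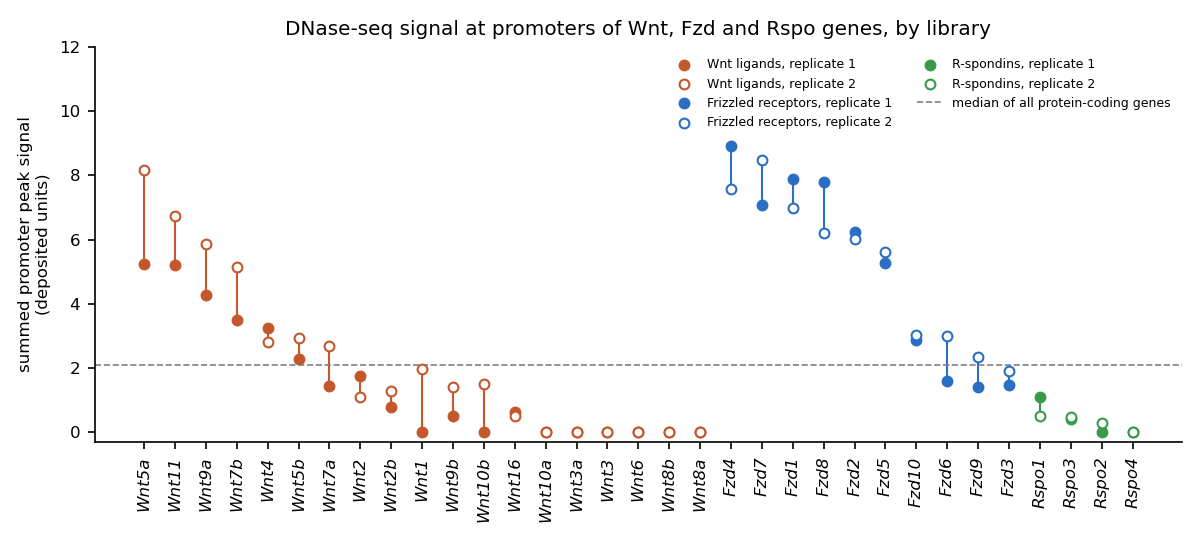
Summed promoter peak signal in deposited units (y axis) of each of the 33 genes (x axis), with replicate 1 as filled and replicate 2 as open points joined by a line. The dashed line is the median of all protein-coding genes, 2.10. The 6 Fzd genes with the highest signal lie between 5.27 and 8.91 in both libraries, and the 4 Rspo genes lie at 1.09 or lower.

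Among the ligands, Wnt5a had the highest summed promoter signal, as the mean of the libraries. Wnt5a (chr14:28504750-28527448), which encodes a ligand best known for signals that do not run through beta-catenin, had 5.24 in replicate 1 and 8.17 in replicate 2, a mean of 6.705 ± 2.08 (SD, n = 2). Its signal was spread over 6 promoter peaks in replicate 1 and 10 in replicate 2, around 2 TSSs. Some of these peaks overlap others of the same library, as at chr14:28505661-28505940 and chr14:28505661-28506160, and each was summed. The part of such overlaps in its rank was not tested. The strongest promoter peak shared between the libraries had a mean signal of 1.57. Wnt11 (chr7:98835112-98855195), another ligand of this kind, had 5.21 in replicate 1 and 6.75 in replicate 2 (5.98 ± 1.09, SD, n = 2). The ranges of Wnt5a, Wnt11 and Wnt9a overlapped, so their order is not settled. By the strongest single promoter peak Wnt5a lay lower, with 1.55 and 1.59 in the replicates, beside 2.797 and 3.16 at Wnt11 and 2.56 and 4.05 at Wnt9a.

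The strongest shared promoter peak of Wnt11 is printed, as that of 1 of the 2 ligands with the highest promoter signal. That of Wnt5a lies in an annotated exon and was left out. The Wnt11 peak carries 1 of the 2 CTCF matches inside a footprint found in paired promoter peaks of these loci. CTCF is a DNA-binding protein of chromatin loop ends and insulators. The peak lies at chr7:98837981-98838180, in an intron 764 bases before the nearest TSS, with a signal of 2.797 and 3.16. Sequences here and below are the plus strand of mm10, 5′ to 3′, from the reference, and capitals mark bases inside a footprint of both libraries. The CAST alleles of the cross were not read.

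Wnt11: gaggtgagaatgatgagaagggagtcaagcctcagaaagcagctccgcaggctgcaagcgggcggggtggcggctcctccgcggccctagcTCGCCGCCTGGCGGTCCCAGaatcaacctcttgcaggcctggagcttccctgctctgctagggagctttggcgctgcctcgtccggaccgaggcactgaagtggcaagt

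The capitals form 1 stretch of 20 bases, TCGCCGCCTGGCGGTCCCAG. It holds GCCGCCTGGCGG, which matches the CTCF consensus used here on the minus strand.

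Wnt9a, Wnt7b and Wnt4 followed. Wnt9a had 4.26 in replicate 1 and 5.85 in replicate 2 (5.06 ± 1.12, SD, n = 2). Wnt7b, known from epithelia as a beta-catenin ligand, had 3.51 in replicate 1 and 5.14 in replicate 2 (4.33 ± 1.15). Wnt4, which acts in kidney and female reproductive tract development, had 3.26 in replicate 1 and 2.81 in replicate 2 (3.03 ± 0.316). Replicate 2 was the higher library for Wnt9a and Wnt7b and the lower one for Wnt4.

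Wnt5b, Wnt7a and Wnt2 had promoter signals near or under the median of all genes. Wnt5b, the closest relative of Wnt5a, had 2.29 in replicate 1 and 2.95 in replicate 2 (2.62 ± 0.471). Wnt7a, known from the female reproductive tract and the limb, had 1.45 in replicate 1 and 2.704 in replicate 2 (2.08 ± 0.887). Wnt2, a ligand of mesenchyme, had 1.74 in replicate 1 and 1.11 in replicate 2 (1.43 ± 0.443). The ranges of Wnt7a and Wnt2 overlapped.

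Weak peaks marked 3 further ligand promoters in both libraries. Wnt2b had 0.802 in replicate 1 and 1.28 in replicate 2 (1.04 ± 0.339), Wnt9b, a ligand of the embryonic kidney ducts, had 0.503 and 1.42 (0.963 ± 0.650), and Wnt16 had 0.622 and 0.521 (0.572 ± 0.0715). Wnt1 and Wnt10b had promoter peaks in replicate 2 alone. For Wnt1, known from midbrain development, 2 peaks summed to 1.97, or 223 steps, and for Wnt10b, known from fat and bone precursors, 2 peaks summed to 1.52, or 172 steps. Wnt3, Wnt3a, Wnt6, Wnt8a, Wnt8b and Wnt10a had no promoter peak in either library.

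The Frizzled promoters fell into a strong set and a weaker set. Fzd4 (chr7:89404355-89413134), a receptor that also binds Norrin and acts in blood vessels, had 8.91 in replicate 1 and 7.56 in replicate 2 (8.24 ± 0.952, SD, n = 2). Fzd7 (chr1:59482424-59486955) had 7.07 in replicate 1 and 8.47 in replicate 2 (7.77 ± 0.994). Fzd1 (chr5:4753839-4758035), of the same subfamily as Fzd7 and Fzd2, had 7.905 in replicate 1 and 6.999 in replicate 2 (7.45 ± 0.641). These values placed Fzd4, Fzd7 and Fzd1 at the 88.0th, 86.1st and 84.8th percentile of all genes, whatever their CpG content, by mean promoter signal.

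Fzd8, Fzd2 and Fzd5 completed the strong set. Fzd8 had 7.79 in replicate 1 and 6.21 in replicate 2 (7.003 ± 1.12), Fzd2 had 6.22 and 6.01 (6.12 ± 0.153), and Fzd5, the closest relative of Fzd8, had 5.27 and 5.62 (5.44 ± 0.248). The ranges of Fzd4, Fzd7, Fzd1 and Fzd8 overlapped, and replicate 1 was higher at Fzd4, Fzd1, Fzd8 and Fzd2 but lower at Fzd7 and Fzd5.

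The weaker set held Fzd10, Fzd6, Fzd9 and Fzd3. Fzd10 had 2.87 in replicate 1 and 3.03 in replicate 2 (2.95 ± 0.117). Fzd6, a receptor of planar cell polarity, had 1.61 in replicate 1 and 3.004 in replicate 2 (2.31 ± 0.985), and Fzd3, which shares that role, had 1.48 and 1.92 (1.701 ± 0.307). Fzd9 had 1.398 and 2.36 (1.88 ± 0.680). The ranges of Fzd6, Fzd9 and Fzd3 overlapped one another.

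A pair of the strong Frizzled promoters are printed to show how much of the open sequence lay in footprints. The Fzd4 peak, at chr7:89404121-89404400, had a signal of 5.69 and 4.67. Like the Fzd4 promoter peak at chr7:89403461-89403940, it also lies inside another gene, Tmem135. The part of Tmem135 in the Fzd4 signal was not tested. The printed stretch, chr7:89404223-89404354, is only some of the peak's part upstream of the Fzd4 transcript. Of its 132 bases, 63 lay inside footprints of both libraries. The Fzd7 peak, upstream of its single exon, had 6.25 and 5.74, and 103 of the 300 bases of chr1:59481891-59482190 lay inside them.

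Fzd4: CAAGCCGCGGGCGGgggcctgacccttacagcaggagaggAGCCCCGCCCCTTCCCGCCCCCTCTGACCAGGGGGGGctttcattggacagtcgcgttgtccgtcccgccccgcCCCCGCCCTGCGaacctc

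Fzd7: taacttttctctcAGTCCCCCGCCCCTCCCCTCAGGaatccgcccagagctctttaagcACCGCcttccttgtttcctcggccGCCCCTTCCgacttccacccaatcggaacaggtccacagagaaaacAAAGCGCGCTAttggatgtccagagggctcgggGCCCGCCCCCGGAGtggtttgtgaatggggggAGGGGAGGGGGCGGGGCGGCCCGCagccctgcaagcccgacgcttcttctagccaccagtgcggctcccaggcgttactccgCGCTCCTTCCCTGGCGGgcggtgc

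Both hold a match to the KLF/SP letters GGGCGGG inside a footprint of both libraries. In the central 200 bases of paired promoter peaks, such a match was found in 4 of 55 in these loci (7.27%) beside 13.6% of all 21780. KLF and SP factors bind GC-rich promoters, and a match is a description of the letters, not of a bound factor. The longest footprints were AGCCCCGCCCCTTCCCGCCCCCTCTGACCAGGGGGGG at Fzd4, with 37 bases, and AGGGGAGGGGGCGGGGCGGCCCGC at Fzd7, with 24 bases.

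R-spondin promoters carried weak peaks or none. Rspo1 (chr4:124986430-125009099), known from ovary development, had 1.09 in replicate 1 and 0.513 in replicate 2 (0.802 ± 0.409, SD, n = 2). Rspo3 (chr10:29452416-29535867), known from blood vessels and intestinal crypts, had 0.401 in replicate 1 and 0.486 in replicate 2 (0.443 ± 0.0603). Rspo2, known from limb and lung, had 1 peak of 0.292 in replicate 2 alone, and Rspo4, known from nail development, had none. In the shorter of the deposited peak lists, 0 of 4 Rspo genes had a promoter peak in either library. The ranges of Rspo1 and Rspo3 did not overlap, but the lower value of Rspo1, 0.513, was close to the higher value of Rspo3, 0.486.

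The Rspo1 promoter peak is printed for contrast with Fzd4 and Fzd7. Its part upstream of the transcript, chr4:124986252-124986429, had 22 CpG dinucleotides in 178 bases and no base inside a footprint of both libraries.

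Rspo1: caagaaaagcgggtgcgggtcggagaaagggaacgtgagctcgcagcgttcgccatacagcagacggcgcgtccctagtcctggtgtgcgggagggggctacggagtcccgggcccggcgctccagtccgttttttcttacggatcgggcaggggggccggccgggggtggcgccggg

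Counts of genes with a strong promoter peak, and of genes with several, separated the families in the same order as the signal. A promoter peak stronger than the library's median peak was present in both libraries at 17 of the 33 genes, against 56.2% of all genes. These were the 10 Fzd genes and Wnt4, Wnt5a, Wnt5b, Wnt7a, Wnt7b, Wnt9a and Wnt11, with 0 of 4 Rspo genes. At least 2 promoter peaks in both libraries were found at 16 genes, against 32.6% of all genes, of which 8 were Fzd and 8 were Wnt. A promoter stretch with a cut-rate false discovery rate under 0.05 in both libraries was found at 23 genes, against 63.8% of all genes. These were the same genes as those with a promoter peak in both libraries.

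Footprints were present at all 10 Frizzled promoters and at the 11 Wnt promoters with a peak in both libraries. A promoter footprint was called at 22 of the 33 genes in replicate 1 and at 24 in replicate 2, against 61.8% and 63.9% of all genes, and at 21 in both, against 60.6%. No R-spondin promoter had one in both libraries. Rspo1 had 1 footprint in replicate 1 alone and Rspo3 had 2 in replicate 2 alone. Wnt5a had 15 and 11 promoter footprints in the replicates, Fzd2 had 10 and 16 and Fzd8 had 10 and 6. The part of peak strength in these counts was not tested.

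Promoters rich in CpG dinucleotides tend to be open in many tissues, so the counts were also read among genes of like CpG content. The ratio of observed to expected CpG was taken over 500 bases on either side of the 5′ TSS, and 0.6 was used as the limit. Of the 33 genes 26 lay at or above it, among them all 10 Fzd, 13 Wnt and 3 Rspo genes. A promoter peak in both libraries was found at 21 of these 26, against 93.4% of all 10041 genes at or above the limit. By family these were 10 of 10 Fzd, 9 of 13 Wnt and 2 of 3 Rspo genes. The 5 CpG-rich genes without one in both were Wnt3 at 0.617, Wnt3a at 0.748, Wnt6 at 0.738, Wnt10b at 0.628 and Rspo2 at 0.741.

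Below the limit, 2 of 7 genes had a promoter peak in both libraries, against 37.2%, and these were Wnt7b and Wnt16. A peak stronger than the median was found in both libraries at 16 of the 26 CpG-rich genes, against 87.8%, and at 1 of 7 others, against 29.3%. For footprints the counts were 19 of 26, against 91.7%, and 2 of 7, against 34.1%. Among the CpG-rich genes all 10 Fzd, 6 of 13 Wnt and 0 of 3 Rspo genes had such a strong peak. At this number of genes the Fzd counts lie near the shares of all CpG-rich genes, 93.4% for a promoter peak and 87.8% for a strong one. Promoter signal was not set beside that of genes of like CpG content. Whether the counts of any family differ from other CpG-rich genes was not tested.

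**Figure D2:**
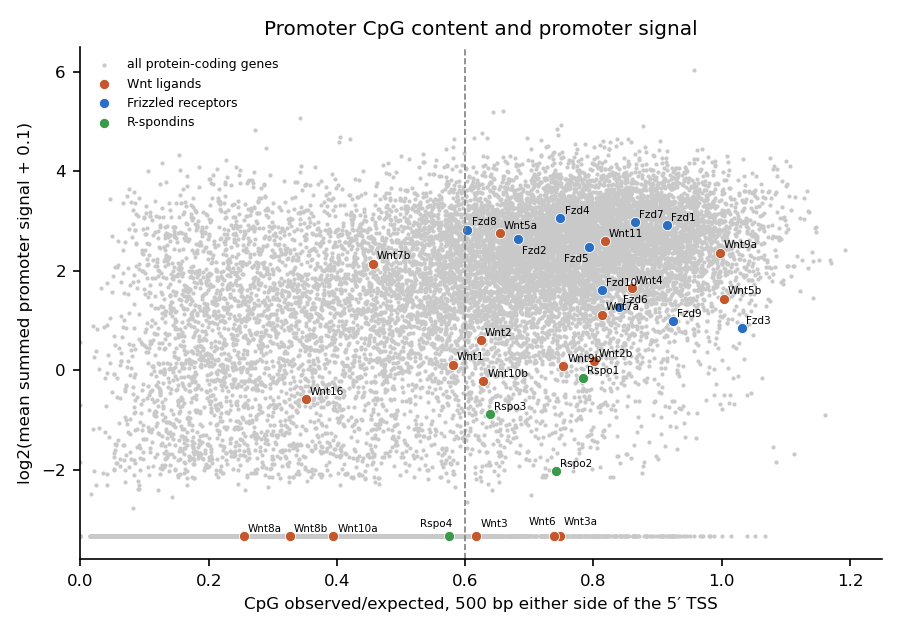
Ratio of observed to expected CpG around the 5′ TSS (x axis) against the log2 of mean summed promoter signal plus 0.1 (y axis) for all protein-coding genes in grey and the 33 genes in colour. The dashed line is the limit of 0.6, and genes on the lowest line had no promoter peak. Wnt3, Wnt3a and Wnt6 lie on that line to the right of the limit, and the 10 Fzd genes all lie above it.

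Away from promoters, nearly all Wnt loci held peaks. A locus is the gene body extended by 10 kb each way, and its peaks were called distal when they overlapped no promoter. A distal peak was present in both libraries at 27 of the 33 loci, against 59.6% of all genes. By family these were 18 of 19 Wnt, 6 of 10 Fzd and 3 of 4 Rspo loci. The median density of distal peaks was 0.729 per 10 kb over the 33 loci, beside 0.283 over all genes. It was 0.729 over the Wnt loci, 1.099 over the Fzd loci and 0.266 over the Rspo loci. The order of Wnt and Fzd rests on replicate 2: in replicate 1 the medians were 0.729 for Wnt, 0.384 for Fzd and 0.145 for Rspo, and in replicate 2 they were 0.819, 1.44 and 0.387.

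By the mean of the libraries, Fzd1 and Fzd7 had the densest loci of the 3 families, at the 126th and 133rd place of 21853 genes. Wnt6 and Wnt5a followed at the 344th and 372nd place. In replicate 2 alone Fzd2 was the densest with 2.54 distal peaks per 10 kb, beside 2.45 at Fzd7, 2.09 at Wnt6 and 2.07 at Fzd1, while in replicate 1 Fzd2 had no distal peak. Fzd loci are short, with a median of 25253 bases beside 37380 over all genes, and 6 of the 10 Fzd genes have a single exon. Many distal peaks of Fzd1, Fzd7, Fzd2 and Fzd8 lay in that exon, not far past the promoter limit of 1 kb. Their centres lay 1516 to 3059 bases after the TSS at Fzd1 and 1207 to 2809 at Fzd7. At Fzd2 they lay 1504 to 2691 bases after it and at Fzd8 1418 to 2531. Other distal peaks lay upstream at each of these loci, and downstream at Fzd7 and Fzd2. The part of the exon peaks in the density ranks was not tested. At Fzd9 and Fzd10 no distal peak was called, and in the whole Wnt3 locus no peak of any kind was called in either library.

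**Figure D3:**
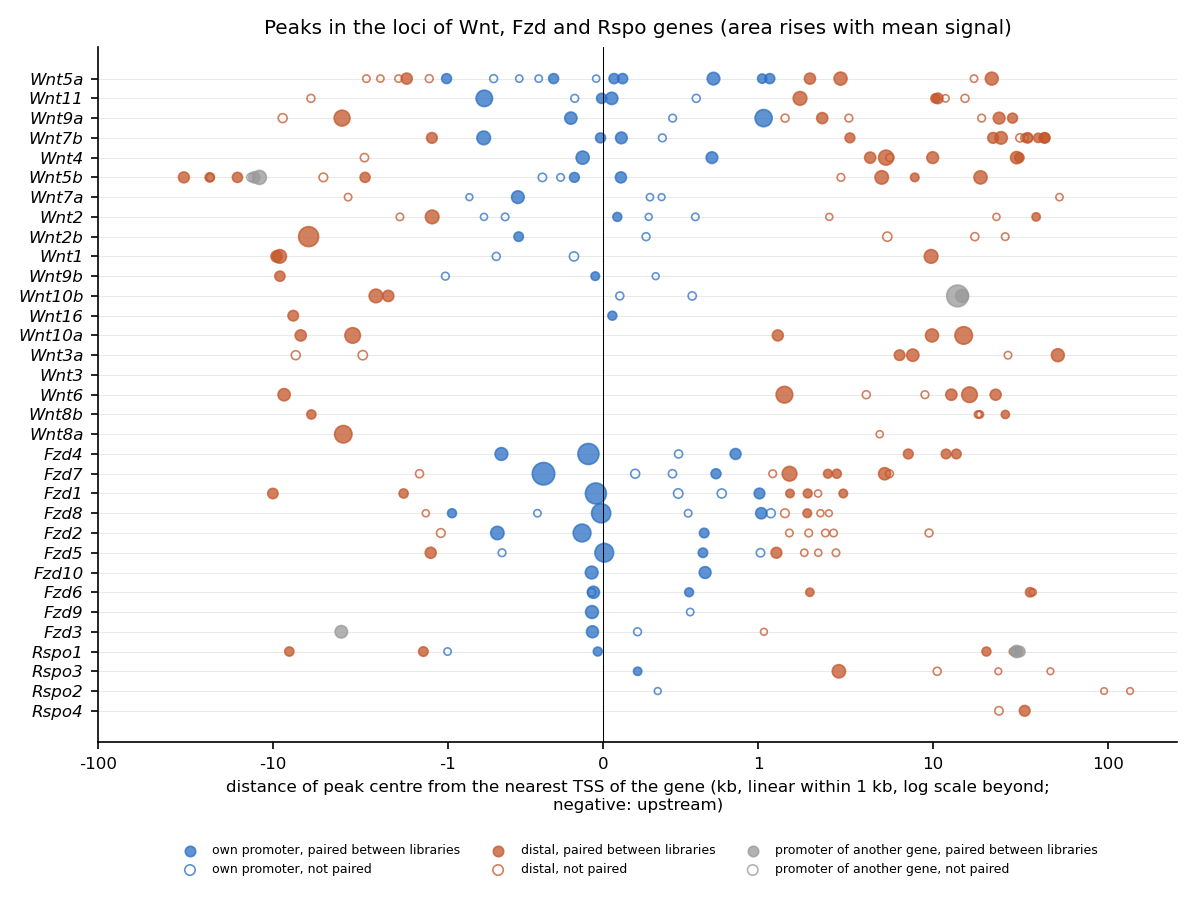
Peaks in the 33 loci by distance of the peak centre from the nearest TSS of the gene (x axis, kb, linear within 1 kb and log scale beyond, upstream to the left). Point area rises with mean signal, filled points were paired between the libraries, and colour gives own promoter, distal or the promoter of another gene. Wnt6, Wnt10a, Wnt3a, Wnt8a and Wnt8b have distal peaks and no promoter peak.

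Several ligand genes without a promoter peak had distal peaks, with strong ones at Wnt6, Wnt10a and Wnt8a. Wnt6 and Wnt10a are neighbours on chromosome 1, 6193 bases apart, and their loci share 3 peaks in each library. Wnt6 had 5 distal peaks in replicate 1 and 7 in replicate 2, and Wnt10a had 5 in each. Wnt3a, known from the forming body axis, had 3 and 6, Wnt8b had 5 and 2, and Wnt8a had 1 and 2. Those of Wnt8b were weak, at 0.324 to 0.529 in replicate 1 and at 0.433 and 0.707 in replicate 2. An intronic peak of Wnt6 at chr1:74773181-74773420, 1409 bases after the TSS and so just outside the promoter window, had a signal of 3.04 and 3.17. Under a promoter of 2 kb, Wnt6 and Wnt10a both gained a promoter peak in both libraries. The Wnt10a peak that then counts, at chr1:74794548-74794760 in an intron, had 1.22 and 0.954.

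The strongest distal peak of all 33 loci lay 6240 bases upstream of Wnt2b. It had a signal of 3.38 and 5.92 in the replicates, above the summed promoter signal of Wnt2b itself in both libraries. Within it, 51 of 200 bases lay in footprints of both libraries. Its sequence at chr3:104968061-104968260, like the distal sequences that follow, was chosen after its values were seen.

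Wnt2b: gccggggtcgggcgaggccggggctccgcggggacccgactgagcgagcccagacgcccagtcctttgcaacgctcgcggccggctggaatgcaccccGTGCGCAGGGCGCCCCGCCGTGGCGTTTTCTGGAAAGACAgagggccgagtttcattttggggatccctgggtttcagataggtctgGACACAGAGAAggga

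It was rich in CpG, with 20 in 200 bases, and held a match to the TEAD letters GGAATG outside the footprints. The next strongest distal peaks lay 14938 bases after the nearest TSS of Wnt10a, with 2.79 and 4.16, 3952 bases upstream of Wnt8a on chromosome 18, with 2.26 and 4.604, in the Wnt6 intron given above, and 4017 bases upstream of Wnt9a, with 2.405 and 3.102. As deposited, all 5 peaks had the larger value in replicate 2, while the Wnt6 peak stood at -0.08 on the log2 scale after centring on all paired peaks.

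The Wnt6 and Wnt10a pair had a CTCF match inside a footprint of both libraries on each side and between the genes. These 3 are printed to show the match and its strand in each. The first, at chr1:74763181-74763360 upstream of Wnt6, had a signal of 1.19 and 1.73. The second, at chr1:74787921-74788120 between the genes, had 1.69 and 3.597. The third, at chr1:74808201-74808400 beyond Wnt10a, had 2.79 and 4.16.

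Upstream of Wnt6: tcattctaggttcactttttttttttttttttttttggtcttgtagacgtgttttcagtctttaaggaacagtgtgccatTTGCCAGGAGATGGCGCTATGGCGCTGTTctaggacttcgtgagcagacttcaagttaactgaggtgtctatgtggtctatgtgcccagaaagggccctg

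Between Wnt6 and Wnt10a: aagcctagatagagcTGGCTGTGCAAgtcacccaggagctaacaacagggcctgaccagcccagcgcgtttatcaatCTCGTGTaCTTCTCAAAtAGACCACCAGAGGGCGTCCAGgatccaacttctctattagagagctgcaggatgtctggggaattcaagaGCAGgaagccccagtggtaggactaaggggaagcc

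Downstream of Wnt10a: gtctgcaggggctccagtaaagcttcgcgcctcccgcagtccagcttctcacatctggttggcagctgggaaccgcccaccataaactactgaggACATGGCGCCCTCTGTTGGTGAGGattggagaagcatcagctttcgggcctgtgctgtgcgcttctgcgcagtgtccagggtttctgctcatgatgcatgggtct

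The matches were CCAGGAGATGGC and CCACCAGAGGGC on the plus strand at the first and the second, and GCCCTCTGTTGG on the minus strand at the third. Each lay whole inside capitals. All 3 peaks were higher in replicate 2.

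Wnt1 and Wnt10b are also neighbours, on chromosome 15 and 11706 bases apart, and both had promoter peaks in replicate 2 alone. The 2 peaks that lie in both loci were called in both libraries. At chr15:98780561-98780880 the signal was 2.16 and 1.69, and at chr15:98780194-98780480 it was 1.28 and 1.03. These peaks were thus higher in replicate 1, unlike the promoter peaks beside them. Of the other neighbouring pairs, Wnt3a and Wnt9a had 1 peak in both loci, in replicate 2 alone, and Wnt3 and Wnt9b had none.

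Ligands with open promoters had distal peaks as well. Wnt7b had 9 distal peaks in replicate 1 and 10 in replicate 2, Wnt5b had 7 and 10, Wnt5a had 7 and 8, Wnt9a had 5 and 7, Wnt11 had 4 and 5, and Wnt4 had 7 and 5. The Wnt4 intron peak at chr4:137282761-137282960 had a signal of 2.58 and 2.28. Wnt2 had a peak 1226 bases upstream of its TSS, at chr6:18031621-18032000, with 2.31 and 1.53, above its promoter signal of 1.74 and 1.11. Among R-spondins, an intronic peak of Rspo3 at chr10:29532881-29533080 had 1.57 and 2.02, above the 0.401 and 0.486 of its promoter.

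By annotation the 136 distinct distal peaks, of which 74 were paired between the libraries, lay in introns for 55, upstream for 27, downstream for 24, in coding exons for 22 and in untranslated exons for 8. Those in coding exons had a median signal of 0.263 beside 0.558 over all 136, and 6 of the 22 were paired. These medians are of library means, in which a peak called in 1 library is averaged with 0, so unpaired peaks lower them. A strong one was the peak in the single exon of Fzd7 at chr1:59483821-59484040, with 2.26 and 2.32.

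Motif letters were counted on both strands in the central 200 bases of paired peaks. For distal peaks, a CTCF match was found in 17 of 74 peaks of these loci (23.0%) beside 18.0% of all 48647 paired distal peaks, AP-1 letters TGANTCA in 13 (17.6%) beside 19.7%, and TEAD letters GGAATG in 12 (16.2%) beside 13.5%. TCF/LEF letters CTTTGAT, the site of the nuclear effectors of the pathway, were found in 0 of 74 beside 2.29%. GATA letters AGATAAG were found in 1 (1.35%) beside 3.56%, and the GRHL consensus in 0 beside 0.197%. These shares lie near those of all peaks at this number of peaks. In paired promoter peaks, those of other genes in the loci included, KLF/SP letters were found in 19 of 55 (34.5%) beside 36.2% of 21780, ETS letters CCGGAAG in 0 beside 10.9%, and TCF/LEF letters in 1 (1.82%) beside 1.102%. Outside the central window but within the peaks, TCF/LEF letters were found in the Fzd6 distal peak at chr15:39042041-39042320 and in 1 promoter peak of another gene in the Rspo1 locus, and ETS letters in promoter peaks of other genes, 1 in the Wnt10b and 1 in the Wnt5b locus. Matches of different motifs may overlap, and no match says only that the letters are not in the window.

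The peaks of these loci returned between libraries about as often as peaks at large. Of 156 distinct peaks in replicate 1, 132 overlapped a peak of replicate 2, or 84.6% (exact Clopper-Pearson 95% interval 78.0 to 89.9), against 84.7% of all peaks. Of 204 in replicate 2, 136 overlapped one of replicate 1, or 66.7% (59.7 to 73.1), against 64.1%. The intervals cover counting error only.

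Differences between the libraries past 1.5-fold were found at ligand and R-spondin loci and at no receptor locus. The summed signal of a locus in replicate 2 over replicate 1 was put on a log2 scale and centred by subtracting the genome-wide median of such ratios, 0.28. Of 31 loci with a value, 5 lay over 1.5-fold higher in replicate 2, against 11.0% of all loci, and 3 over 1.5-fold lower, against 3.38%. The higher ones were Rspo4 at 1.32, Wnt9b at 1.08, Wnt8a at 0.85, Wnt3a at 0.73 and Rspo3 at 0.64. The lower ones were Wnt8b at -1.15, Wnt2 at -0.98 and Wnt4 at -0.64. A peak called in 1 library adds 0 to the other, and some of these values rest on such peaks. After centring on all paired peaks, those of Wnt8b stood at 0.28 and -0.0008, and its other peaks were called in replicate 1 alone. The paired peaks of Wnt3a stood at 0.059, 0.49 and -0.22, and its others were called in replicate 2 alone. Those of Rspo3 stood at 0.22 and 0.13 and those of Wnt9b at -0.22 and 1.09. The other peaks of Rspo3 and Wnt9b were called in replicate 2 alone. At Wnt8a and Rspo4 the paired peak itself stood at 0.88 and 0.72. None of the 10 Fzd loci passed either limit, and their values ran from -0.55 at Fzd1 to 0.47 at Fzd9. The difference between the families was not tested.

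**Figure D4:**
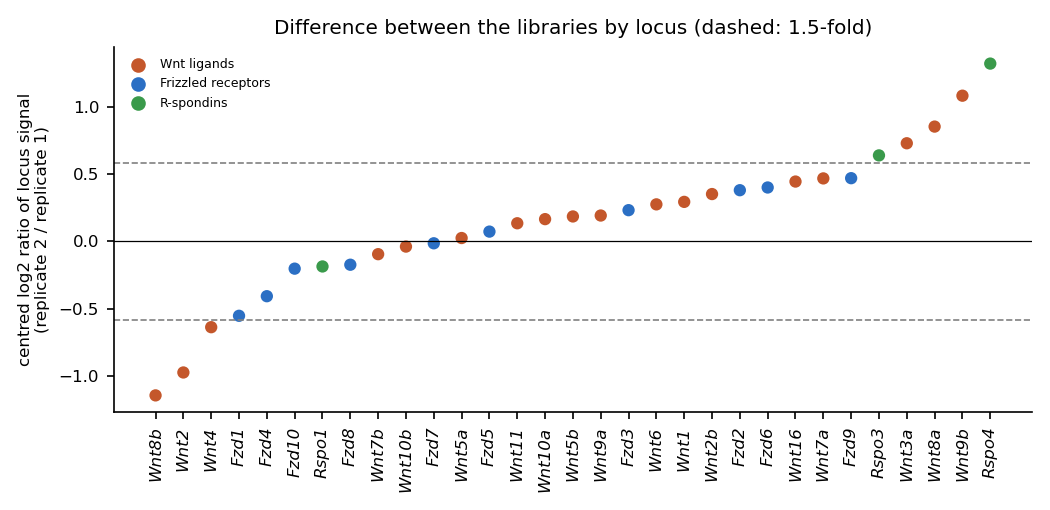
Centred log2 ratio of summed locus signal, replicate 2 over replicate 1 (y axis), for the 31 loci with a value (x axis, in rising order). Dashed lines are 1.5-fold, and the Fzd loci, in blue, lie between them, while 6 Wnt and 2 Rspo loci lie outside.

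Promoter signal alone gave a similar count. Of the 23 genes with a promoter peak in both libraries, 4 lay over 1.5-fold higher in replicate 2 after centring, against 7.47% of all genes, namely Fzd6, Fzd9, Wnt7a and Wnt9b. Rspo1 and Wnt2 lay over 1.5-fold lower, against 3.89%. Fzd6 and Fzd9 thus passed the limit at the promoter but not over the locus.

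Distal peaks with a CTCF match were higher in replicate 2. After centring on all paired peaks, 12 of the 17 distal peaks with a match were higher there, against 84.8% of all such peaks, and 22 of the 57 without a match, against 47.2%. The median log2 ratio was 0.42 with a match and -0.11 without, beside 0.59 and -0.03 over all distal peaks. All 8 distal peaks with the match inside a footprint of both libraries were higher in replicate 2, against 96.5% of such peaks genome-wide. They lay in the loci of Wnt1, Wnt5a, Wnt5b, Wnt6, Wnt8a, Wnt9a and Wnt10a, the last with 2. The difference thus held for distal peaks with a CTCF match at large. Among all paired promoter peaks with a match, 1233 of 2547 were higher in replicate 2, with a median log2 ratio of -0.01. With the match inside a footprint of both libraries, 366 of 524 promoter peaks were higher there, with a median of 0.18. The part of the distal difference in the locus ratios above was not tested.

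Most other genes of the pathway had open promoters. Of 58 further pathway genes on 8 lists, 49 had a promoter peak in both libraries, against 63.0% of all genes. These lists were not compared with genes of like CpG content, and among all CpG-rich genes the share was 93.4%. All 11 genes of the cytoplasmic core had one, led by the kinase genes Gsk3b with 19.05 and 10.8 in the replicates (14.9 ± 5.85, SD, n = 2) and Gsk3a with 15.98 and 12.6 (14.3 ± 2.38). All 8 nuclear effectors had one, led by the co-activator gene Bcl9l with 18.1 and 16.7 (17.4 ± 1.02) and Tcf7l1 with 9.61 and 10.6 (10.1 ± 0.684). All 6 co-receptors had one, led by Lrp6 with 4.07 and 4.303 (4.19 ± 0.167) and Ptk7 with 4.72 and 3.36 (4.04 ± 0.960).

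Genes whose products bind R-spondins or remove Frizzled receptors had promoter peaks throughout. All 5 genes of R-spondin receptors and Frizzled turnover had a promoter peak in both libraries, led by Znrf3 with 6.11 and 6.87 (6.49 ± 0.538) and Lgr4 with 6.36 and 6.56 (6.46 ± 0.138). Of 13 feedback and target genes 12 had one, led by Myc with 12.7 and 13.4 (13.03 ± 0.525) and Axin2 with 7.96 and 7.27 (7.62 ± 0.489), and Notum, a secreted enzyme that inactivates Wnt proteins, had none. The secretion genes Wls, with 3.14 and 3.68 (3.41 ± 0.387), and Porcn, with 2.62 and 3.15 (2.88 ± 0.373), were open. Of 7 planar polarity genes 6 had a peak in both, led by Prickle1 with 9.23 and 12.1 (10.7 ± 2.03) and Celsr3 with 6.43 and 6.49 (6.46 ± 0.0464).

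Secreted antagonists had the lowest share of these lists, with 5 of 12 genes. The highest were Wif1 with 2.11 and 3.72 (2.92 ± 1.14) and Sfrp1 with 1.77 and 1.81 (1.79 ± 0.0268). Sfrp5, Dkk1, Dkk2, Dkk4, Sost and Sostdc1 had no promoter peak, and Dkk3 had 1.41 in replicate 1 alone.

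**Figure D5:**
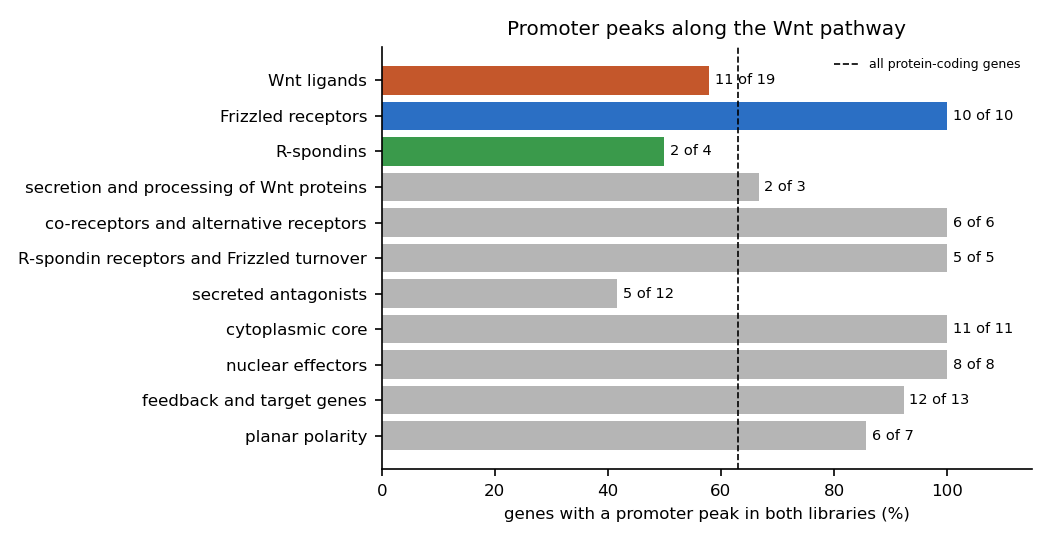
Share of genes with a promoter peak in both libraries (x axis, percent) for the 3 families in colour and 8 lists of other pathway genes in grey (y axis), with counts beside the bars. The dashed line is the share of all protein-coding genes, 63.0%, and the Wnt, R-spondin and secreted antagonist bars end to its left.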

How the data were processed

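DNase-seq of urinary bladder was analysed in 2 libraries of 1 group. Peaks were called per library and deposited by the authors with a signal value, which comes in whole steps (0.00853 in replicate 1, 0.00884 in replicate 2) for 100% of peaks within a tolerance of 0.02. For the scaling, the aligner and the caller, the sources used here name nothing. Footprints and stretches of significant cut rate carry deposited values on the p-value scale: 0.01 in every footprint, and a false discovery rate per stretch. Positions are mm10, per the labels. A longer and a shorter peak list were deposited, and the longer was used.

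Genes, 54361 TSSs of protein-coding transcripts and sequence came from GENCODE M21 and GRCm38.p6, read with pysam 0.24.0 and numpy 2.4.6. Promoter signal was summed over peaks within 1 kb of a TSS, overlapping peaks included. An overlap of 1 bp made 2 peaks shared, and pairs were those of largest mutual overlap. Counts were set beside those of all protein-coding genes, values are means and SD over 2 libraries, and the counting was tested on simulated data. The members, lists, motifs and rules were chosen with earlier results of these data known. Named were all members, the 2 strongest genes and those without a promoter peak of each pathway list, and the 5 strongest distal peaks. Further peaks, the CTCF matches and the distal sequences were picked after values were seen. Alternatives covered promoter and locus width, TSS choice, the peak list, equal numbers of peaks, centring, overlap and each library alone.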

Additional observations from a re-analysis of the deposited data

How the results depend on the processing

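The number of genes with a promoter peak in both libraries ran from 17 to 25 over 7 alternatives, and all 10 Fzd genes kept theirs in each. It was 18 with the shorter list and 17 with the 42295 strongest peaks of each library, where 0 of 4 Rspo genes had one. In single libraries it was 23 to 26, and the footprint count was 22 to 24. The median promoter signal of 1.70 became 2.08 with 2 kb promoters, 1.11 with the shorter list and 1.11 with the strongest peak in place of the sum, a choice added after seeing the data, and was 1.45 to 1.97 in single libraries. The median density of 0.729 became 0.379 with the shorter list (all genes 0.139) and 0.207 with the 42295 strongest peaks (all genes 0), also added after seeing the data. In single libraries it was 0.546 to 0.819. The median log2 ratio of locus signal, 0.19, is not stable: it was 0.47 without centring, -0.13 without promoter peaks, 0.017 with paired peaks only, 0.068 with 50 kb flanks and 0.10 with the shorter list, and the cause was not tested. With at least 50% of each peak overlapped, the shared percentages were 70.5 for replicate 1 and 53.4 for replicate 2. No paired analysis was possible because the 2 libraries form 1 group. The unknown depth in reads limits what can be said of promoters without a called peak.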

Other observations

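Some other pathway genes, picked after their values were seen, differed between the libraries more than most loci. On the centred log2 scale of locus signal, Dkk3, a secreted protein of the Dickkopf family, stood at -1.43, the transcription factor gene Lef1 at -1.29 and the secreted antagonist gene Frzb at -1.04, so that replicate 2 was lower. Replicate 2 was higher at Lgr6, an R-spondin receptor gene, at 1.01, at Dkk1 and Dkk2, of the same family as Dkk3, at 0.84 and 0.78, at Lgr5, another R-spondin receptor gene, at 0.69 and at the antagonist gene Wif1 at 0.67. Antagonist genes thus lay on both sides. These are values of 1 library over another, with no replicate of the difference, and the sums include peaks called in 1 library alone.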
